A study of Mus musculus with 6 samples.

Results

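Heparan sulfate proteoglycans were examined in 1G11 cells, a mouse microvascular endothelial cell line, through the syndecans *Sdc1* to *Sdc4*, the glypicans *Gpc1*, *Gpc3*, *Gpc4* and *Gpc6*, and the sulfotransferases *Ndst1* and *Hs6st1*. All non-control spots whose array annotation names one of these 10 genes were taken, which gave 15 spots of 15 probes among 59305 non-control spots of 55681 probes. The 2 groups compared were 1G11-mock cells and 1G11-SOD3 cells, the latter overexpressing SOD3, the extracellular superoxide dismutase. Both carry the strain label C57BL/6NCrLBR, both were kept for 6 h in conditioned medium of N202.1A mouse mammary cancer cells, and each was measured in 3 biological replicates on single-color Agilent SurePrint Mouse G3 arrays. Neither cells without tumor medium nor a second pair of lines was analysed here, so that the comparison is between one modified line and its control line.

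Heparan sulfate is a long sugar chain attached to a small number of core proteins. Syndecans cross the plasma membrane and glypicans are held on it by a lipid anchor, and on endothelium their chains form part of the glycocalyx and bind growth factors, chemokines and proteases. The chain is begun on a linker, extended by exostosins and then modified, mainly by N-sulfation (NDST enzymes), epimerization and O-sulfation (HS2ST, HS6ST and HS3ST enzymes), and the pattern of sulfate sets what binds. SOD3 itself is kept at cell surfaces and in matrix by a heparin-binding tail. The question put to the arrays was whether transcripts of these carriers and enzymes differed between cells with and without overexpressed SOD3.

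*Sod3*, the overexpressed gene, had log2 intensities of 13.61, 12.66 and 9.86 in replicates 1, 2 and 3 of 1G11-mock cells, and of 16.37, 16.30 and 16.26 in those of 1G11-SOD3 cells. Values of all genes are given in this order. All arrays thus followed their labels, with a log2 fold change of 4.27 ± 0.70 (SE, limma adjusted p = 0.00760). Its spot lies in the central 33.3% of rows and 33.5% of columns of the array, here called the middle (6606 non-control spots), where the intensity of a spot depended on its place. A position adjustment, which divides each array's signal by a smooth surface over row and column, left *Sod3* at 2.67 ± 0.48 (SE, adjusted p = 0.0183). One member spot lies in the middle (*Gpc4*) and is reported apart from the other 14. The 6 arrays shared 1 slide on which all 1G11-mock arrays were in row 2 and all 1G11-SOD3 arrays in row 1, so slide row and cell line cannot be told apart. Between 34.2% and 43.8% of spots per array were well above background by the scanner software, none was saturated, and 3 arrays per line limit the precision (an exact 2-sided permutation test of 3 against 3 arrays cannot give a p below 0.1).

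The label of the cells was checked against endothelial markers. *Eng*, *Vwf*, *Esam* (in the middle) and 1 of the 2 probes of *Kdr* were well above background on all arrays and *Pecam1* on 4 of 6, whereas *Cdh5*, *Tek*, *Tie1*, *Emcn* and *Erg* were so on no array. The methods of the study state that the endothelial origin of the line was checked regularly by staining for VE-cadherin, the protein of *Cdh5*. Outside the middle, 6 of 10 features of fibroblast and pericyte markers were called higher in 1G11-SOD3 cells (*Pdgfrb*, *Col1a1*, *Col1a2*, *Col3a1*, *Lum* and *Acta2*). Of all features there, 0.66% were called higher. The log2 fold changes of the uncalled *Pdgfra*, *Dcn*, *Cspg4* and *Rgs5* were 0.27, 0.29, 0.13 and -0.54. The summed intensity of this list was 16.21 to 16.24 on the log2 scale on 1G11-mock arrays and 17.11 to 18.50 on 1G11-SOD3 arrays. *Col3a1* was its brightest feature on every array. The highest sum was that of 1G11-SOD3 replicate 3, where *Dcn* was at 17.05, compared to 13.51 and 13.59 in replicates 1 and 2. The endothelial list summed to 14.35 to 14.87 on 1G11-mock and 13.84 to 14.08 on 1G11-SOD3 arrays, with *Vwf* called lower and *Egfl7* called higher. The calls of *Pdgfrb*, *Col1a1*, *Acta2* and *Vwf* held with each array left out and after position adjustment, while *Col1a2*, *Col3a1*, *Lum* and *Egfl7* each lost theirs without at least 1 array, and *Lum* and *Egfl7* also after position adjustment (adjusted p = 0.0528 and 0.0949). None of 9 epithelial and none of 9 leukocyte features outside the middle was called, and their summed intensities overlapped between the lines (10.64 to 10.75 against 10.58 to 10.81, and 14.15 to 14.61 against 14.25 to 14.59). The leukocyte sum rested mainly on an *Itgam* probe at 13.91 to 14.44, while the other *Itgam* probes were well above background on no array. After position adjustment that probe differed by -0.76 (limma adjusted p = 0.104). In the middle, however, the epithelial keratin *Krt14* was called higher in 1G11-SOD3 cells (log2 fold change 4.82, or 2.34 after position adjustment with an adjusted p of 0.000752), also with each array left out. The part of these markers in the results below was not tested, and in such bulk RNA fewer cells of a type and less RNA per cell cannot be told apart.

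Outside the middle, no member probe was called different between the lines, where a call required a limma p, adjusted by Benjamini-Hochberg over 55961 features, under 0.05 and more than a 2-fold change. This was 0 of 14 probes against 1.86% of the 49526 features tested outside the middle (0.66% higher and 1.2% lower). The 14 log2 fold changes of 1G11-SOD3 over 1G11-mock had a median of -0.03, compared to -0.06 over all features outside the middle, and 7 were above 0 and 7 below. After position adjustment both medians turned positive, at 0.12 for the members and 0.06 for all features outside the middle. At an unadjusted p under 0.05 there was 1 probe (*Sdc3*), against 12.7% of all features outside the middle. For 11 of the 14 probes the 95% confidence interval of the difference lay within 2-fold in both directions. Among the 9 probes well above background on all arrays this held for 6. For probes near background a narrow interval says little about the transcript. The interval reached beyond 2-fold for *Sdc2*, *Sdc3* and *Gpc1*, whose differences were estimated less closely.

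**Figure D1:**
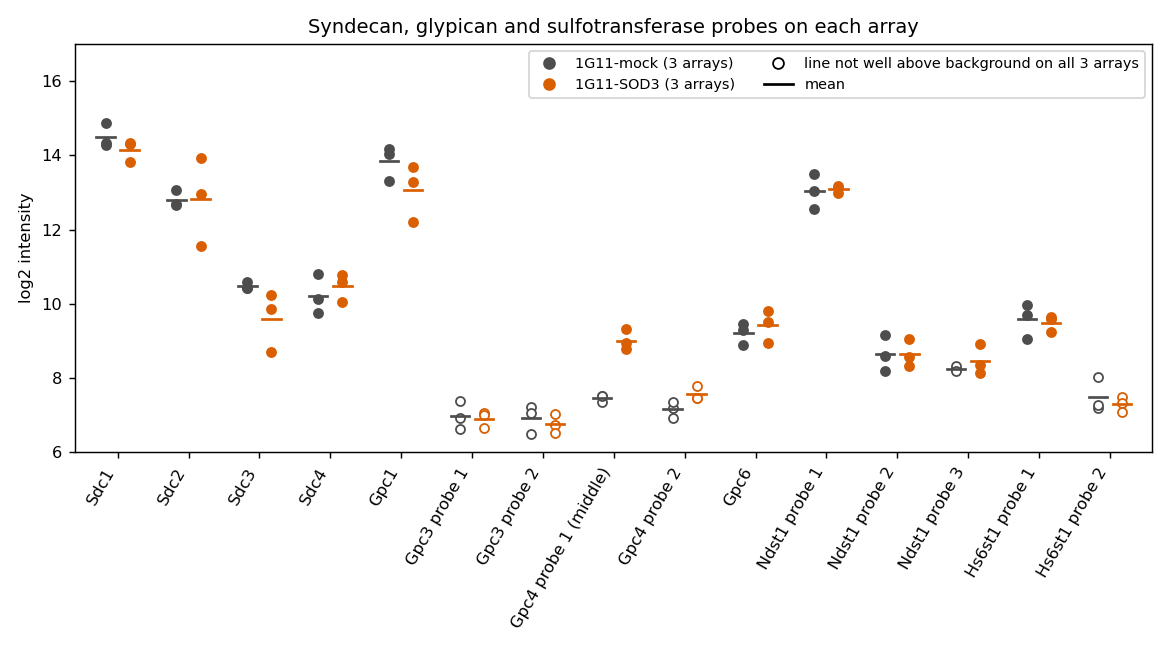
Log2 intensity (y axis) of each member probe on the 3 1G11-mock (gray) and 3 1G11-SOD3 (orange) arrays, with the mean as a bar; open circles mark a line in which the probe was not well above background on all 3 arrays. The groups interleave for most probes, and they separate clearly at the *Gpc4* probe in the middle of the array. Intensities of different probes are not comparable as transcript levels.

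All 4 syndecans were well above background on every array. *Sdc1*, the transmembrane proteoglycan also known as CD138, had log2 intensities of 14.29, 14.87 and 14.33 in 1G11-mock and of 14.31, 14.33 and 13.81 in 1G11-SOD3 cells. The groups overlapped, and the difference was -0.35 ± 0.26 (SE, adjusted p = 0.598). *Sdc4*, a syndecan of focal adhesions, was at 10.79, 10.13 and 9.75 in 1G11-mock and at 10.60, 10.79 and 10.06 in 1G11-SOD3 cells. Here too the groups overlapped (0.26 ± 0.30, adjusted p = 0.759), and leaving out 1 array at a time gave 0.02 to 0.54.

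*Sdc2*, the syndecan typical of mesenchymal and endothelial cells, was the least reproducible member. Its log2 intensities were 12.69, 12.66 and 13.06 in 1G11-mock and 12.95, 11.55 and 13.94 in 1G11-SOD3 cells. The 1G11-SOD3 arrays lay on both sides of all 1G11-mock arrays, with an SD of 1.20 compared to 0.22. Their mean difference of 0.01 ± 0.47 (SE, adjusted p = 0.995) therefore has a 95% confidence interval of -1.01 to 1.04, and without 1G11-SOD3 replicate 3 it was -0.55.

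*Sdc3*, the syndecan best known from neural tissue, showed the lowest fold change of the members. It was at 10.42, 10.58 and 10.43 in 1G11-mock and at 10.24, 9.86 and 8.70 in 1G11-SOD3 cells. All 1G11-SOD3 arrays were below all 1G11-mock arrays, and 19.7% of features outside the middle, or 28.9% of those well above background on all arrays, separated the lines in one direction or the other. The log2 difference of -0.88 ± 0.35 (SE, 95% confidence interval -1.64 to -0.12) had an unadjusted limma p of 0.0276 and an adjusted p of 0.263. The lowest array was 1G11-SOD3 replicate 3, without which the difference was -0.43, whereas the position-adjusted difference was -0.62 (adjusted p = 0.442). The probe is at chr4:130382015-130382074 of the array annotation, which names no genome build.

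The study from which the arrays come concerns NF-κB signaling, and the starts of the member genes were therefore searched for the κB consensus on both strands. RefSeq promoter windows (GRCm38.p6, 250 bases before to 50 after the start) were at hand for 6 of the 10 genes (*Sdc1*, *Sdc3*, *Sdc4*, *Gpc3*, *Gpc4* and *Hs6st1*). A match was present in 2 of these 6, at 134 to 125 bases before the start of *Sdc1* and 82 to 73 before that of *Sdc4*, and in 8.46% of all 32851 windows. The 60 bases around each match are printed so that the letters behind this count can be seen, each on the strand of its gene with the match in capitals. A match describes these letters and is neither a site nor a cause, and neither gene was called different.
Sdc1, chr12:8771237-8771296, plus strand: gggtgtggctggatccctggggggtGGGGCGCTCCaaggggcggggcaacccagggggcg
Sdc4, chr2:164443236-164443295, minus strand: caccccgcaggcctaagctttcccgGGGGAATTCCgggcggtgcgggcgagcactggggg

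Among the glypicans, *Gpc1*, known from endothelial glycocalyx, had the lowest fold change. Its log2 intensities were 14.18, 14.03 and 13.32 in 1G11-mock and 13.69, 13.29 and 12.22 in 1G11-SOD3 cells. The groups overlapped by 1G11-mock replicate 3, which was below 1G11-SOD3 replicate 1. The difference was -0.78 ± 0.37 (SE, 95% confidence interval -1.59 to 0.03, adjusted p = 0.368), and it was -0.36 without 1G11-SOD3 replicate 3 and -0.80 after position adjustment (adjusted p = 0.189). At each replicate number the 1G11-SOD3 array was the lower one. With arrays paired by replicate number the limma adjusted p was 0.0994, and the probe was not called. The probe is at chr1:94756711-94756770 of the array annotation.

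*Gpc6*, a glypican of mesenchymal tissues, was the other glypican well above background on all arrays. It was at 9.31, 9.44 and 8.88 in 1G11-mock and at 9.51, 8.95 and 9.81 in 1G11-SOD3 cells. The groups overlapped and the difference was 0.21 ± 0.28 (SE, adjusted p = 0.786). Both probes of *Gpc3*, a glypican of embryonic tissues that restrains growth, were well above background on no array, with log2 intensities of 6.49 to 7.38 over the 6 arrays and differences of -0.06 and -0.16 (adjusted p = 0.942 and 0.836). With the processed signal of the scanner software, 1 of them was called lower (-1.02, adjusted p = 0.0413), as were 14.6% of features outside the middle. The probes lie 115092 bases apart on the array annotation and thus report different stretches of the gene.

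*Gpc4*, a glypican first described in kidney, was the only member with a called probe, the one in the middle of the array. After position adjustment neither of its 2 probes was called. They lie 400 bases apart on the X chromosome, at chrX:49406560-49406619 and chrX:49406100-49406159 on the minus strand of the array annotation (build not given), and one was designed on the *Gpc4* mRNA and the other on a sequence named K-glypican. The first sits at row 149 and column 75, in the middle of the array, and the second at row 69 and column 136. Whether either stretch is coding or untranslated is not given in the sources used here. The first 30 of the 60 bases of each probe are printed to show which sequence each spot carried.
Gpc4 probe in the middle: tcctagtgactttgctttttaaatgaatgg
Gpc4 probe outside the middle: tgccttattgggagagaagtggagttgact

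The *Gpc4* probe in the middle had log2 intensities of 7.51, 7.34 and 7.51 in 1G11-mock cells, well above background on 0 of 3 arrays, and of 9.31, 8.78 and 8.95 in 1G11-SOD3 cells, well above background on 3 of 3. All 1G11-SOD3 arrays were above all 1G11-mock arrays. The log2 difference of 1.56 ± 0.23 (SE, 95% confidence interval 1.05 to 2.06, limma adjusted p = 0.00418) was called. It corresponds to a 2.94-fold higher intensity, with the 1G11-mock intensities taken as measured. In the middle, 11.9% of 6435 features were called higher, compared to 0.66% outside it. Of the 361 tested middle features with the same pattern (well above background on no 1G11-mock and all 1G11-SOD3 arrays), 49.6% were called higher, and the 362 such features had a median log2 difference of 1.15 (quartiles 0.71 and 1.62).

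The surface that described the effect of place was, at this spot, -0.14, -0.95 and -2.14 for 1G11-mock and 1.11, 0.69 and 1.42 for 1G11-SOD3 (log2), a difference of 2.15 between the lines. At the other 14 member spots the surface differed by 0.07 to 0.54. With the position adjustment the *Gpc4* difference in the middle was 0.14 ± 0.37 (SE, 95% confidence interval -0.69 to 0.96, adjusted p = 0.873) and no longer called. Of the middle features, 1.85% were then called higher but 8.36% lower, so that the adjusted values of the middle carry an imbalance of the other direction. The *Gpc4* probe outside the middle was at 6.92, 7.21 and 7.35 in 1G11-mock and at 7.80, 7.47 and 7.46 in 1G11-SOD3 cells, well above background on no array. All its 1G11-SOD3 values were above the 1G11-mock values, and 19.7% of features outside the middle separated the lines in one direction or the other. The difference of this probe was 0.42 ± 0.23 (SE, adjusted p = 0.454), or 0.63 after position adjustment (adjusted p = 0.132).

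**Figure D2:**
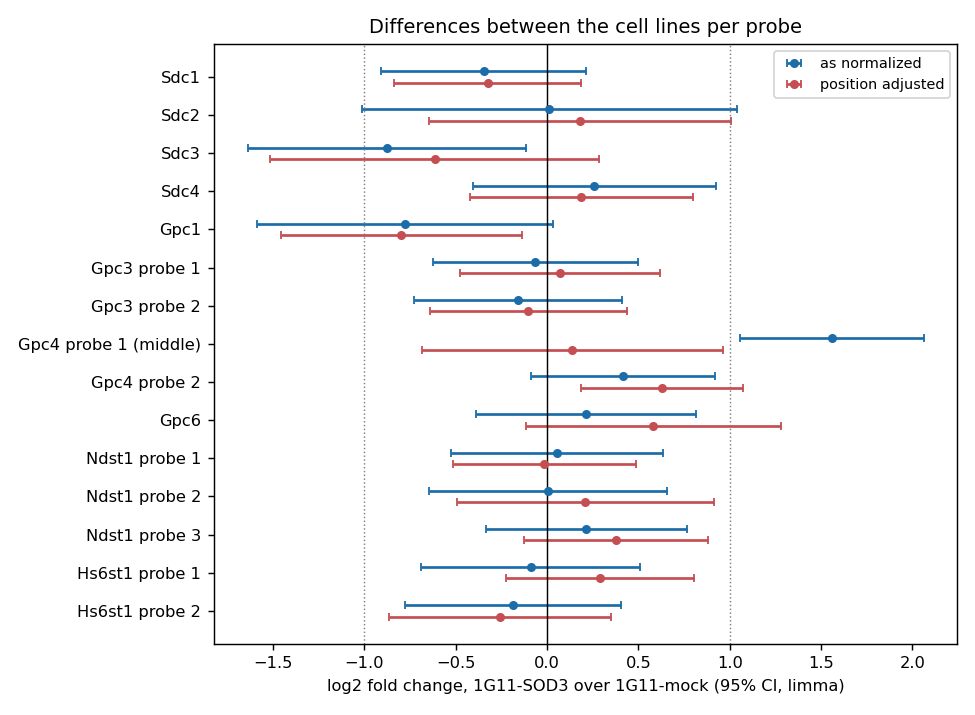
Log2 fold change of 1G11-SOD3 over 1G11-mock (x axis) for each member probe with its 95% confidence interval from limma, as normalized (blue) and after position adjustment (red); dotted lines mark 2-fold. Only the *Gpc4* probe in the middle moved from beyond 2-fold (1.56) to near 0 (0.14), while the other 14 probes lay between -0.88 and 0.42 as normalized.

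*Ndst1*, the enzyme that starts sulfation of the chain by N-deacetylation and N-sulfation of glucosamine, was read by 3 probes, each designed on the same mRNA. The first had log2 intensities of 13.05, 13.50 and 12.56 in 1G11-mock and of 13.18, 13.13 and 12.98 in 1G11-SOD3 cells. The 1G11-SOD3 values fell within the 1G11-mock range, and the difference was 0.05 ± 0.26 (SE, 95% confidence interval -0.53 to 0.64, adjusted p = 0.953). The other probes differed by 0.01 and 0.22 (adjusted p = 0.996 and 0.757), the last being well above background on all arrays but 1 of 1G11-mock. The 3 probes of this gene thus gave the same answer within their errors.

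*Hs6st1*, which adds 6-O-sulfate to glucosamine, had log2 intensities of 9.07, 9.71 and 9.98 in 1G11-mock and of 9.60, 9.24 and 9.64 in 1G11-SOD3 cells. The groups overlapped, with a difference of -0.09 ± 0.27 (SE, 95% confidence interval -0.69 to 0.51, adjusted p = 0.923). A second probe, matched by gene name only and 965 bases away, was well above background on no array and differed by -0.19 (adjusted p = 0.810).

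The other genes of the pathway were taken from 8 lists by role and comprised 52 genes with 68 features. Outside the middle, 45 of these genes had 59 features, of which 2 were called higher and 1 lower (background 0.66% and 1.2%) and 56 were not called. Their median log2 difference was -0.13, with 24 above and 35 below 0, and it was 0.07 after position adjustment, compared to 0.06 for all features outside the middle. Of the 38 features well above background on all arrays, 2 were called, 17 separated the lines without overlap and 18 had an unadjusted p under 0.05, compared to 4.56%, 28.9% and 24.3%, respectively, of all features outside the middle that were likewise well above background.

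Both called directions included secreted proteoglycans, the carriers of heparan sulfate in basement membranes. *Agrn* (agrin) had log2 intensities of 13.86, 12.99 and 13.29 in 1G11-mock and of 11.34, 12.42 and 11.82 in 1G11-SOD3 cells. The lines did not overlap, 1G11-SOD3 being lower, with a log2 fold change of -1.52 ± 0.32 (SE, adjusted p = 0.0254). The call was lost without 1G11-mock replicate 1 or 3 or 1G11-SOD3 replicate 1 or 3 (log2 fold changes of -1.26 to -1.57), and after position adjustment (-1.16, adjusted p = 0.116). A second, dim *Agrn* probe differed by -0.32 (adjusted p = 0.710).

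*Col18a1*, the collagen XVIII core protein and source of endostatin, was called higher. Its probe was at 7.79, 7.32 and 7.67 in 1G11-mock cells, well above background on no array, and at 9.09, 9.06 and 9.05 in 1G11-SOD3 cells, well above background on all. The groups were apart, with a 2.78-fold higher intensity (log2 fold change 1.47 ± 0.22 SE, 95% confidence interval 0.98 to 1.96, adjusted p = 0.00494). After position adjustment the log2 fold change was 1.53 (adjusted p = 0.00622). The second *Col18a1* probe, likewise well above background on the 1G11-SOD3 arrays alone, had 7.73, 7.64 and 7.82 against 8.20, 8.40 and 8.31. It was again apart in the same direction, with a 1.49-fold higher intensity (log2 fold change 0.57, 95% confidence interval 0.11 to 1.04, adjusted p = 0.222), and not called. It was called after position adjustment (1.06, adjusted p = 0.0245) and with the processed signal (1.85, adjusted p = 0.0182), where 0.719% and 1.37% of features outside the middle were called higher, respectively. *Hspg2* (perlecan) was not called in either probe (-0.59 and -0.29, adjusted p = 0.277 and 0.715).

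*Ext1*, a subunit of the polymerase that extends the chain, was called higher. It had log2 intensities of 10.85, 11.07 and 10.13 in 1G11-mock and of 12.23, 12.12 and 12.56 in 1G11-SOD3 cells. The lines were apart by 1.62 ± 0.28 (SE, adjusted p = 0.00950). The spot lies outside the middle, but the surface there differed by 1.25 between the lines, and with the position adjustment the difference was 0.80 (adjusted p = 0.0728) and not called. The call was also lost without 1G11-SOD3 replicate 3 (1.49, adjusted p = 0.0595) and, at a log2 fold change just under 2-fold, with the processed signal (0.99). *Extl2* and *Extl3*, related glycosyltransferases, differed by -0.58 and -0.08 (adjusted p = 0.314 and 0.917).

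None of the 5 features outside the middle in the list for extracellular editing of chains (*Sulf1*, *Sulf2*, *Hpse* and *Hpse2*) was called. The 5 separated the lines, 4 of them lower and *Hpse2* higher in 1G11-SOD3 cells, as did 19.7% of all features outside the middle in either direction and 28.9% of those well above background on all arrays. *Sulf2*, which removes 6-O-sulfate from the chain at the cell surface, was at 14.55, 14.67 and 14.52 in 1G11-mock and at 13.63, 13.78 and 13.76 in 1G11-SOD3 cells. The 1G11-SOD3 arrays were lower throughout, by less than 2-fold (-0.86 ± 0.21 SE, adjusted p = 0.0533; -0.48 and adjusted p = 0.213 after position adjustment). *Hpse*, the heparanase that cleaves the chain, was at 12.15, 11.80 and 11.88 against 10.88, 11.48 and 10.82 (-0.88 ± 0.25 SE, adjusted p = 0.0968), and its second probe differed by -0.63. *Sulf1* differed by -0.76 (adjusted p = 0.240) outside the middle but by -0.16 at its probe in the middle, and *Hpse2*, well above background on no array, by 0.40. The median of the 5, of which 4 were well above background on all arrays, was -0.76. It was -0.06 for all features outside the middle and -0.17 for those well above background on all arrays. After position adjustment the median of the 5 was -0.48, compared to 0.06 for all features outside the middle.

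The remaining lists had no called feature outside the middle. The 10 features of linker synthesis had a median of 0.14 and ran from -0.40 (*B3gat3*) to 0.44 (*B4galt7*). The 10 of chain modification other than *Ndst1* and *Hs6st1* had a median of -0.10, with *Hs2st1* at -0.33 and *Hs6st2* at -0.10. The 4 of sulfate donor supply had a median of 0.37, with *Papss1* at 0.55 and *Papss2* at -0.71. The 11 of other glypicans and partners of the core proteins had a median of -0.44, among them *Sdcbp* (syntenin, which binds the cytoplasmic tail of syndecans) at -0.84 (adjusted p = 0.0715), and the 8 of lysosomal degradation a median of -0.27. After position adjustment the medians were 0.38 for linker synthesis, 0.11 for chain modification and 0.27 for sulfate donor supply. They were 0.0049 for the other glypicans and partners and -0.18 for lysosomal degradation. *Papss1* was then at 0.29 and *Papss2* at 0.0082 (limma adjusted p = 0.436 and 0.992). For *Sdcbp* the position-adjusted value was -0.50 (adjusted p = 0.188). Its second, dimmer probe was at -0.91 as normalized (limma adjusted p = 0.118) and at -0.19 after position adjustment (adjusted p = 0.764).

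**Figure D3:**
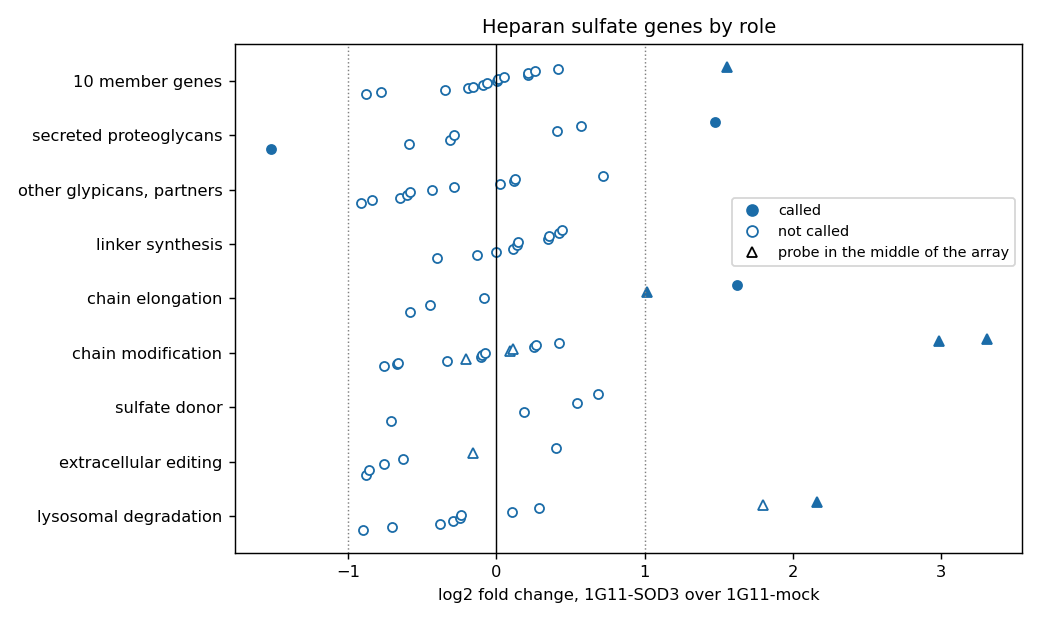
Log2 fold change of 1G11-SOD3 over 1G11-mock (x axis) for each feature of the member genes and of 8 lists of other heparan sulfate genes; filled symbols are called, triangles lie in the middle of the array, dotted lines mark 2-fold, and the vertical offset within a list only separates the points. Outside the middle, *Agrn* (-1.52), *Col18a1* (1.47) and *Ext1* (1.62) are the called features.

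In the middle of the array, 4 of 9 features of the other heparan sulfate genes were called higher, compared to 11.9% of all middle features. They belonged to *Ext2*, *Ndst2*, *Glce* and *Ids*, named here after their values were seen. *Ext2* was well above background on no 1G11-mock array, and *Ndst2*, *Glce* and *Ids* on only 1 of 3 each. The log2 fold changes were 1.01 (2.02-fold), 2.99, 3.31 and 2.16, respectively. The surface at these spots differed between the lines by 1.78, 2.87, 3.15 and 2.51, respectively. After position adjustment the differences were -0.05, 0.68, 0.91 and 0.34, and none was called. *Gusb*, a lysosomal enzyme whose probe is printed both in the middle and outside it, differed by 1.80 in the middle (adjusted p = 0.0621, or 0.0111 and called with arrays paired by replicate number) and by 0.11 outside (adjusted p = 0.880), so that copies of the same sequence differed by place.

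**Figure D4:**
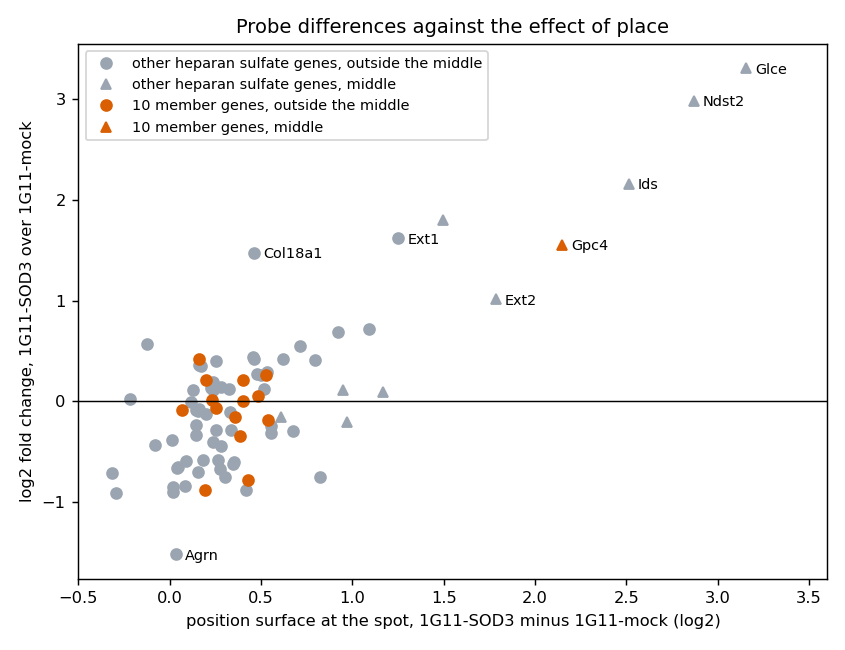
Log2 fold change of 1G11-SOD3 over 1G11-mock (y axis) against the difference of the position surface at the same spot (x axis, log2), for member probes (orange) and other heparan sulfate genes (gray), as circles outside the middle and triangles in it. Called features are named. The 5 called features of the middle lie at surface differences of 1.78 to 3.15, and *Agrn*, *Col18a1* and *Ext1* outside it lie at 0.03, 0.46 and 1.25.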

How the data were processed

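RNA of 3 1G11-mock and 3 1G11-SOD3 samples was hybridized to single-color arrays. For each array the authors deposited the spot intensities of Agilent Feature Extraction 10.7.3.1 with their local background, not normalized between arrays. They also deposited a table of log2 values, background corrected and quantile normalized (median 7.52 per array), which was recomputed here to within 0.005 and used as an alternative. The methods of the study give normexp with an offset of 50, log2 and quantile normalization but not the intensity used. The deposited table was matched by median pixel intensities with control spots kept. Here mean intensities were corrected in this way over all spots and quantile normalized over non-control spots with limma 3.58.1 (R 4.3.3), and outlier spots marked by the scanner software were dropped. Spots of one probe were averaged apart in the middle (the central 33.3% of rows and 33.5% of columns) and outside it. Differences between the lines came from limma (lmFit and eBayes), with p-values adjusted by Benjamini-Hochberg over 55961 features, a call being an adjusted p under 0.05 and more than 2-fold. The procedure was tested on simulated data.

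Of the 15 spots, 12 were matched by gene symbol and 3 by gene name (1 each of *Gpc3*, *Gpc4* and *Hs6st1*). The members, the lists of other heparan sulfate genes and markers, and the settings were chosen with earlier results of these data known. Named genes were all members, *Sod3*, genes of the lists with a called feature outside the middle, and, for genes well above background on all 6 arrays, the brightest feature outside the middle. Other probes of these genes, the marker genes and dim or middle features were named after their values were seen. For the probes of *Gpc4* (in the middle), *Col18a1* and *Ext2*, well above background on no 1G11-mock array, a fold was given beside the log2 fold change. That fold is a point estimate and not a bound. The position adjustment used a smooth surface (mgcv 1.9.3) fitted per array to 20453 spots that were above background on 3 or more arrays, with the probes printed 10 times held out. Among copies of the 192 bright ones of these, the SD of the group difference went from 0.675 to 0.221. Same-numbered arrays of the 2 lines shared a slide column, and their deviations from the group means correlated at 0.166, 0.101 and 0.156 over 16354 features, so the numbers were treated as pairs in an alternative fit. Other alternatives were the deposited table, the middle left out, median pixels, a normexp offset of 16 or no correction, scaling by the 75th percentile of these values or of the processed signal, a variance trend in eBayes, outlier or control spots kept, dim features dropped, and each array left out in turn. Values were tabulated in pandas 2.3.3 and plotted in matplotlib 3.10.9 under Python 3.11.15. Promoter sequences are from RefSeq (GRCm38.p6), and probe positions come from the array annotation, which names no build.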

Additional observations from a re-analysis of the deposited data

How the results depend on the processing

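The count of member probes called outside the middle was 0 in all alternatives and with each array left out in turn (0 to 0), except with the processed signal, where it was 1 (*Gpc3*). With that signal the median over all features was -0.52. With 75th percentile scaling this median was -0.33, compared to -0.03 in the main fit. Calls over all features were 1095 higher and 597 lower, but 1235 and 10007 with the processed signal and 475 and 887 with the position adjustment. In the middle, *Gpc4* was called in every alternative but the position adjustment, where the count was 0 (0.14), and with each array left out (1 to 1, log2 fold changes of 1.41 to 1.68). With the replicate block, which pairs arrays of the same number, 0 member probes were called outside the middle and 1 in it, and the other heparan sulfate genes had 3 called features, all as without it. Among the features of the members, lists and markers it changed only the calls of *Gusb* and *Esam* in the middle, which became called (adjusted p = 0.0111 and 0.0478), while calls over all features became 1498 higher and 798 lower. For the other heparan sulfate genes outside the middle, 3 calls became 7 with the processed signal (2 higher, 5 lower) and ran from 1 to 3 with 1 array left out, the lowest being without 1G11-SOD3 replicate 3 (*Col18a1*). Small differences of members changed sign without a call. The *Gpc3* probe named by symbol (-0.06) became 0.071 after position adjustment. The *Gpc4* probe outside the middle became -0.015 with 75th percentile scaling. The *Hs6st1* probe matched by symbol (-0.09) became 0.48 with the processed signal, 0.29 after position adjustment and 0.079 with the middle left out. The second *Ndst1* probe became -0.0099 without background correction and -0.16 with 75th percentile scaling, the first -0.015 after position adjustment, and the last -0.031 with 75th percentile scaling. With 1 array left out, differences that changed sign ran from -0.24 to 0.14 (*Gpc3*), -0.35 to 0.11 and -0.34 to 0.077 (*Hs6st1*), -0.18 to 0.29, -0.23 to 0.26 and -0.0094 to 0.38 (the *Ndst1* probes in the order of the report) and -0.55 to 0.64 (*Sdc2*). The causes of these changes were not tested. Leaving out the middle removes the *Gpc4* probe and gives no value for it. Signal over background limits what the 4 member probes well above background on no array can show.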
